A study of Mus musculus with 36 samples.

Results

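The genes described here are the ATP-binding cassette (ABC) transporters of the mouse autosomes, taken as every gene whose symbol starts with Abca to Abcg followed by a digit. The annotation holds 48 such protein-coding genes among 20807 on the autosomes. They were read out in liver by chromatin immunoprecipitation and sequencing (ChIP-seq) of trimethylated lysine 9 of histone H3 (H3K9me3). The mice were male and female offspring, aged 3 or 8 weeks, of control dams on chow or of dams with maternal obesity (MO) on a Western-style diet. The dams kept their diet before mating and through pregnancy and lactation, and all offspring aged 8 weeks had eaten chow since weaning. All offspring carried 1 or 2 floxed Reg3g alleles (Reg3g-fl/+ or Reg3g-fl/fl) on a C57BL/6J background, controls included, and whole liver was used. The 8 groups of sex, age and maternal diet had 4 libraries each, and 4 input libraries were not used here. The deposited tables, 6 in all, each pair 2 groups, and their usable value is the authors' average over the 8 libraries of a table. A table lists 1 piece of up to about 500 bp (a bin) for each peak, with its level and no spread between mice. The other pieces of a long peak have no level here, so bin counts, feature shares and levels rest on 1 selected piece a peak. The values below are descriptions and carry no test. The tables that pair control and MO mice of 1 sex and age (4 tables) give 1 level for that sex and age, with the diets averaged together.

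ABC transporters use the energy of ATP to move substrates across membranes, and they are central to what the liver secretes. At the canalicular membrane of hepatocytes they release bile salts, phospholipid, cholesterol and conjugated drugs into bile. At the sinusoidal membrane other members return conjugates and lipids to the blood. Further members serve mitochondria, peroxisomes and lysosomes, regulate potassium channels as sulphonylurea receptors, or act in translation and have no membrane domain. H3K9me3 is a mark of heterochromatin, deposited by lysine methyltransferases and bound by HP1 proteins, and is known for covering repeats and genes of other cell lineages. In whole liver, fewer marked cells and less mark per cell cannot be told apart.

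Base sequence is shown first because peak coverage of these genes moved with base composition. The central 300 bases of 4 bins and the 250 bases before the start of 2 genes are given on mm10, 5′ to 3′, with CG dinucleotides in capitals. The first bin, upstream of Abca13, had the highest level of any full-width member bin in females at 3 weeks. It holds repeated cct and gct units, no CG and only bases that the reference marks as repeats (300 of 300).

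Abca13 upstream bin, chr11:9189521-9189820, plus strand: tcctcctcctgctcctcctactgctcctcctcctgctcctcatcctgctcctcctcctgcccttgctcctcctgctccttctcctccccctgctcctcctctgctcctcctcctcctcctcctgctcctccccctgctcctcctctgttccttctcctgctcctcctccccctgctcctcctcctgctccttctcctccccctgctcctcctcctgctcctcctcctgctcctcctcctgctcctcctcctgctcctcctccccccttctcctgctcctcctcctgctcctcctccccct
Abcb1a distal intergenic bin, chr5:8764435-8764734, plus strand: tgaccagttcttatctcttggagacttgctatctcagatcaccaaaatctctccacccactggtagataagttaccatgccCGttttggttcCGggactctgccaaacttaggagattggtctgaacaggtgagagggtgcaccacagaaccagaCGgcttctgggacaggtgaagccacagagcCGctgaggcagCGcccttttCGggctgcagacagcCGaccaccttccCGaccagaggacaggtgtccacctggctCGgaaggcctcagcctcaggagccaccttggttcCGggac
Abcc4 intronic bin, chr14:118684808-118685107, plus strand: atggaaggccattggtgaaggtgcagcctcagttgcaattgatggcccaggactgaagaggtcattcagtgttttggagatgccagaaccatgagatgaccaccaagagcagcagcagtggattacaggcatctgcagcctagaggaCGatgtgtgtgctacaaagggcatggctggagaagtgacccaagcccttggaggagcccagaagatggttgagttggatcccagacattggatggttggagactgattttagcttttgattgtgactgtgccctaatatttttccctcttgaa
Abcb5 intronic bin, chr12:118954793-118955092, plus strand: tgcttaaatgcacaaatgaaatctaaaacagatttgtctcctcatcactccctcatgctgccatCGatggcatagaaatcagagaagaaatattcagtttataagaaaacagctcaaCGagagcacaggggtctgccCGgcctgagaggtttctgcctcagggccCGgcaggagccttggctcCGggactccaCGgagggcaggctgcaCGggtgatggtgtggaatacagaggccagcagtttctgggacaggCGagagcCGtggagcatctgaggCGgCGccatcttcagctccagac

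Among full-width bins, the Abcb1a bin had the highest member level in males at 8 weeks and the Abcc4 bin the next. The Abcb5 bin had the highest age difference in males when each gene is read by its strongest shared bin. The Abcc4 piece was marked as repeat over all 300 of its bases and had 1 CG. The Abcb1a and Abcb5 pieces were marked over 227 and 196 bases and had 10 and 11 CG. The promoters below belong to a gene without a peak within 1 kb of its start (Abcb11) and to one whose start lay in a peak in both sexes (Abcc4).

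Abcb11 promoter, chr2:69342617-69342866, minus strand: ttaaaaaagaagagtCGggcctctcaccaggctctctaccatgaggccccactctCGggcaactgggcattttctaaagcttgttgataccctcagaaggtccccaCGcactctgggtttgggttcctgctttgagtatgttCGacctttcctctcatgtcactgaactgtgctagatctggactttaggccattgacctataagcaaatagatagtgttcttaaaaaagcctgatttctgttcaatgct
Abcc4 promoter, chr14:118706220-118706469, minus strand: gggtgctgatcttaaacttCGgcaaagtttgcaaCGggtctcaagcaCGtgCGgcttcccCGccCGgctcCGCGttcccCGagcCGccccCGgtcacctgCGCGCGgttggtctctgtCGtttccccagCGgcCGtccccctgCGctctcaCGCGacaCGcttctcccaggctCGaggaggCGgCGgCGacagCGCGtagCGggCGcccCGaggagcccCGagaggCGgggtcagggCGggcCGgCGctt

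The Abcb11 piece had 4 CG and 46.4% GC, and the Abcc4 piece had 35 CG and 72.0% GC.

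Nearly every ABC transporter gene had at least 1 bin assigned to it by the authors as the gene with the nearest start site. The number of member bins was 315 in females at 3 weeks, 262 in females at 8 weeks, 366 in males at 3 weeks and 246 in males at 8 weeks. The tables of control mice at both ages held 275 member bins in females and 357 in males. Members made up between 0.230% and 0.243% of the autosomal bins of a table. Of the 48 genes, 46 had a bin in each sex at 3 weeks and in the age tables, and 44 had one in each sex at 8 weeks. Of all 20807 genes, matched by symbol, between 75.1% and 77.9% had a bin in a table, and of those over 20 kb between 88.5% and 90.5%, where 35 to 38 of 39 members had one. A bin was listed in all 6 tables for 42 genes, or 87.5%, against 69.4% of all genes. Among genes over 20 kb these shares were 89.7% and 84.9%. The exceptions were Abca7, Abca8b, Abca9, Abcb11, Abcc2 and Abcf2. A missing bin means only that no listed bin was assigned to the gene in that table. Peaks over its body can be assigned to genes with a nearer start. Abca7 had no bin in females at 8 weeks, while peaks of that table covered 95.7% of its body. The 5 genes with the most bins over the 6 tables were Abcc4 with 202, Abca13 with 162, Abcc12 with 106, Abcc8 with 103 and Abcc1 with 89. The same locus enters up to 6 times in these sums.

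The share of each gene body that lay under a peak ranged from 0 to 99.6% in females and from 0 to 100% in males. Peaks were merged by the authors for each sex over its conditions, so that each sex has 1 peak set, here the peaks of its 3 tables together. The median gene body was covered over 8.20% of its length in females and 11.5% in males. Over all autosomal protein-coding genes the medians were 9.73% and 11.2%. With the peaks of the tables at 8 weeks alone, the member medians fell to 5.22% in females and 4.81% in males, and those of all genes were 6.47% and 6.01%. The coverage of single genes given below is that of the whole peak set, which was more than 1.5 times that of the 8-week table alone for 11 members in females and 18 in males. A body without any peak was found for 4 members in females (Abca8b, Abca9, Abcd2 and Abcg2), or 8.33%, against 19.5% of all genes. In males there were 3 (Abca8b, Abcb11 and Abcd2), or 6.25%, against 18.1%. ABC genes are often long, and among genes over 20 kb the median was 2.63% for 39 members and 6.37% for all genes in females. In males the same medians were 3.18% and 7.00%. Among these longer genes the share without a peak in the body was larger for members than for all genes, at 10.3% and 6.75% in females and 7.69% and 5.63% in males.

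**Figure D1:**
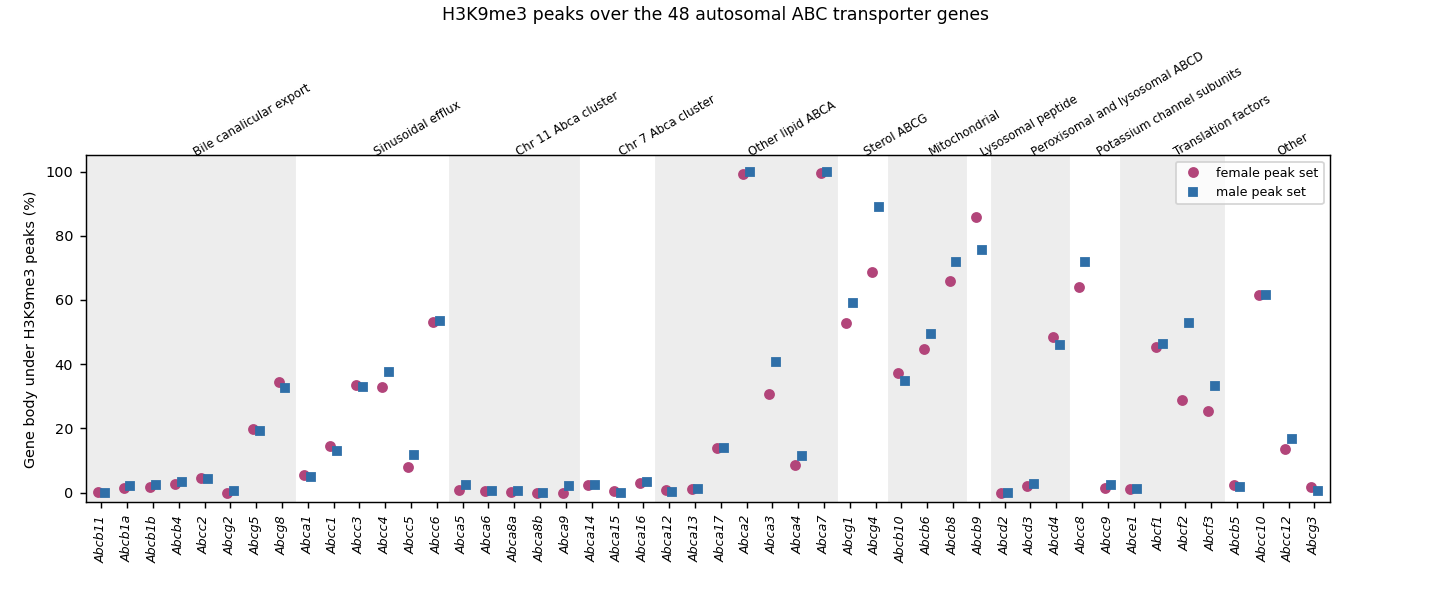
Share of each gene body (vertical axis, percent) under the peak set of females (circles) and males (squares) for the 48 genes, grouped by role. Both sexes place the bile exporters other than Abcg5 and Abcg8 under 5% and Abca2 and Abca7 above 99%, and each point is 1 peak set with no replicate error.

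Among the transporters of the canalicular membrane, peaks were sparse in 6 of 8 genes. Abcb11 (chr2:69238282-69342616), the bile salt export pump, was covered over 0.281% of its body in females and had no peak in males. Its only peak was a 293-bp stretch in intron 5, at 2.74 log2 CPM at 3 weeks and 2.53 log2 CPM at 8 weeks in the female tables. Abcc2 (chr19:43782192-43840740), which exports conjugated bilirubin and other organic anions, was covered over 4.52% in females and 4.29% in males. A single peak in intron 7 was assigned to Abcc2 itself, in males only, at 2.02 log2 CPM at 3 weeks. The other peaks in its body were assigned to genes with a nearer start. Abcg2 (chr6:58584523-58695676), an exporter of urate and many drugs, was covered over 0% in females and 0.532% in males.

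The phospholipid and drug exporters of chromosome 5 lie side by side, and each had a peak at or just inside its start in both sexes. Abcb4, the phosphatidylcholine floppase, was covered over 2.63% in females and 3.25% in males, Abcb1a over 1.56% and 2.04%, and Abcb1b over 1.65% and 2.49%. Abcb1a and Abcb1b encode the mouse P-glycoproteins and are close copies, and how reads that match both were treated is not given in the sources used here. At the Abcb4 start, the level was 2.67 log2 CPM at 3 weeks and 3.13 at 8 weeks in females, and 2.25 and 2.99 in males. The peak at Abcb1a began 10 bases into the gene in males and 33 bases into it in females. Its level was 3.00 log2 CPM at 3 weeks and 3.14 at 8 weeks in females, and 2.54 and 3.29 in males. These promoter levels lay above the median of all autosomal bins of their table, which was 2.40 and 2.62 log2 CPM in females at 3 and 8 weeks and 2.03 and 2.74 in males.

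Abcg5 and Abcg8, whose products form the sterol exporter of bile, differed from the rest of the canalicular list. They share a divergent promoter region on chromosome 17 and were covered over 20.0% and 34.4% of their bodies in females and over 19.2% and 32.7% in males. In the annotation used here the bodies of Abcg5 and Abcg8 overlap, so part of their coverage rests on the same peaks. The peak across the start of Abcg8 was at 2.38 log2 CPM at 3 weeks and 2.69 at 8 weeks in females, and at 1.72 and 2.62 in males, where different bins of the peak were listed at the 2 ages. These levels were close to or under the median of all bins of the same tables.

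The sinusoidal list carried more peaks than the canalicular one, with a median coverage of 23.8% in females and 22.9% in males over 6 genes, against 2.14% and 2.87% over the 8 canalicular genes. The ranges overlapped, and the difference was not tested. Abcc6, an ATP release protein whose loss causes ectopic mineralisation, was covered most, over 53.2% in females and 53.5% in males. Abcc3, which returns glucuronides to the blood, was covered over 33.4% and 32.8%. Abcc4, an exporter of cyclic nucleotides and bile salts, was covered over 32.9% and 37.6%. Abcc1, a transporter of glutathione conjugates, was covered over 14.7% and 13.0%, and Abcc5, an exporter of nucleotide analogues, over 7.88% and 11.6%. Abca1, which hands cholesterol to apolipoprotein A-I, was covered least of the list, over 5.64% and 4.91%.

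Abcc4 (chr14:118482692-118706219, minus strand) held the most member peaks of any gene. Of the female peak set 37 peaks were assigned to it, and of the male set 44. Its body also held 11 female and 13 male peaks that the authors assigned to the microRNA gene Mir6391. The longest Abcc4 peak had 5719 bp in females and 7440 bp in males. The peak across the start site, chr14:118705671-118707509 in females, was at 2.90 log2 CPM at 3 weeks and 2.83 at 8 weeks. In males the matching peak, chr14:118705704-118707660, was at 2.00 and 3.07. In both sexes different bins of this peak were listed at the 2 ages, so these pairs do not measure a change at 1 place. The intronic bin printed above, chr14:118684707-118685207, had 12.7 CPM per kb at 3 weeks and 27.8 at 8 weeks in males. This is a difference of 1.13 on the log2 scale, or 0.50 relative to the median of all shared male bins, which lay 0.63 higher at 8 weeks. The female bin that overlaps it, chr14:118684793-118685293, was at 6.64 CPM at 8 weeks, where the male bin was at 13.9 CPM.

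**Figure D2:**
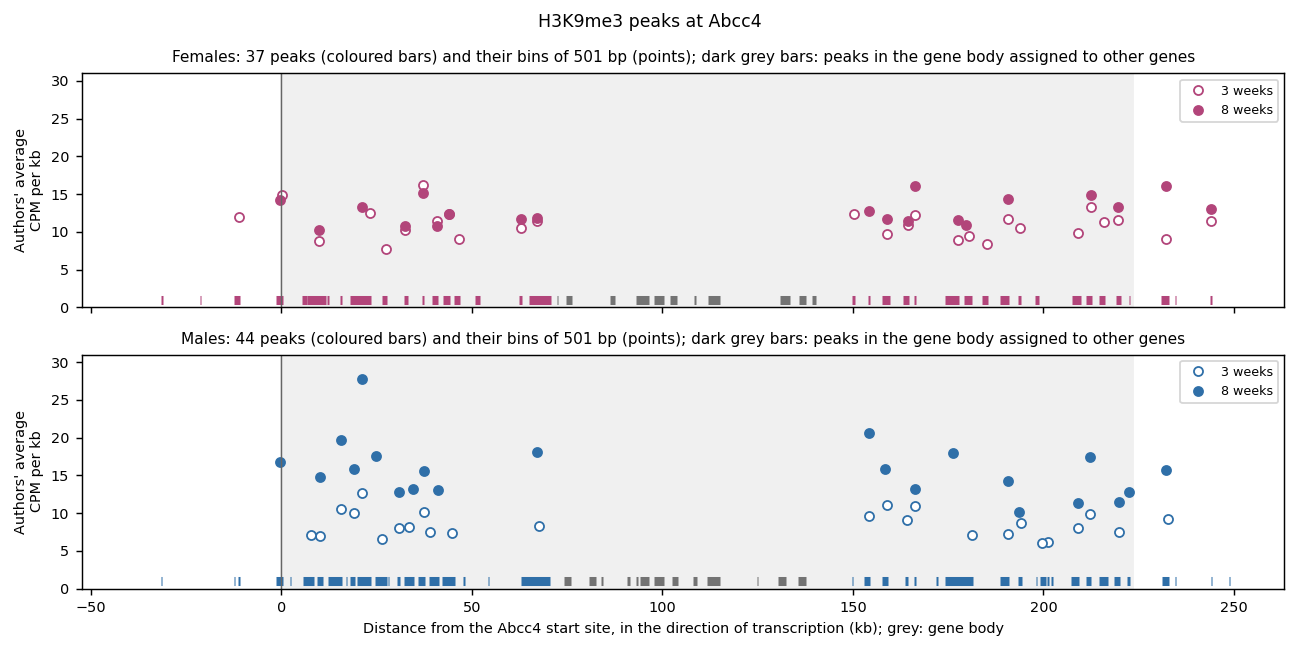
Peaks and levels along Abcc4 by distance from its start site (kb), females above and males below, with bars for peaks and points for the authors' average level of full-width bins (CPM per kb; open, 3 weeks; filled, 8 weeks). Peaks run along the whole gene in both sexes, and the highest point is the intronic bin of males at 8 weeks, at 27.8 CPM per kb.

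The lipid transporters of the ABCA group spanned the whole range of coverage. Abca2 and Abca7, which move sterols and phospholipids and are short, GC-rich genes, were covered over 99.3% and 99.6% in females and over 100% and 99.9% in males. The longest member peaks included the one over Abca2, with 20088 bp in females and 21082 bp in males. Abca3, the lipid transporter of lung surfactant, was covered over 30.6% and 40.8%, and Abca4, the retinoid transporter of photoreceptors, over 8.52% and 11.5%. Abca17, a lipid transporter studied in testis, was covered over 13.9% and 14.1%. Abca12, the skin lipid transporter, was covered over 0.717% and 0.0967%, and Abca13, the longest member at 492318 bp, over 1.06% and 1.11%.

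Most of the Abca13 peaks lay outside the gene. Of 33 female peaks assigned to it 21 lay outside its body, and of 29 male peaks 17 did. The farthest lay 934 kb from an Abca13 start site in females and 933 kb in males, and 28 female and 24 male peaks were more than 50 kb away from the nearest start. These peaks thus describe the sequence between Abca13 and its next neighbour as much as the gene.

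The clustered ABCA genes had little of their bodies under peaks. On chromosome 11, Abca5, Abca6, Abca8a, Abca8b and Abca9 had a median coverage of 0.318% in females and 0.647% in males. On chromosome 7, Abca14, Abca15 and Abca16 had medians of 2.34% and 2.36%. The starts of all 3 chromosome 7 genes lay in a peak of the male set and in none of the female set, as did those of 9.41% of all genes and 16.7% of the members. These 3 genes are neighbours. The Abca14 start was not in a peak of the male table at 3 weeks, nor the Abca15 start in one at 8 weeks, and a female peak ended just short of the Abca15 start. The sterol exporters Abcg1 and Abcg4 were covered over 52.8% and 68.7% in females and over 59.2% and 88.9% in males.

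Mitochondrial Abcb6, Abcb8 and Abcb10, which serve haem and iron metabolism, were covered over 44.8%, 66.0% and 37.3% in females and over 49.3%, 71.9% and 34.8% in males. Abcb9, the lysosomal peptide transporter, was covered over 85.7% and 75.6%. Of the ABCD group, Abcd4, which takes part in lysosomal cobalamin export, was covered over 48.3% and 46.1%, and peroxisomal Abcd3 over 2.09% and 2.62%. Abcd2, also peroxisomal, had no peak in its body, and its assigned peaks lay outside the gene. The sulphonylurea receptors parted as well, with Abcc8 at 63.9% and 71.8% and Abcc9 at 1.58% and 2.33%. Of the translation factors, Abce1 was covered over 1.14% and 1.17%, and Abcf1, Abcf2 and Abcf3 over between 25.5% and 45.4% in females and between 33.2% and 52.9% in males. Abcf2 was at 28.8% and 52.9%, but at 9.39% and 12.9% with the peaks of the tables at 8 weeks alone.

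The coverage of the member genes followed the GC content of their bodies closely. Spearman's rho across the 48 genes was 0.92 in both sexes, and across all 20807 genes it was 0.82 in females and 0.84 in males. The genes share the same peak sets and libraries, neighbouring genes share peaks, and the values are given as a description. The 25 members under 45% GC had a median coverage of 1.56% in females and 2.04% in males, with maxima of 13.9% and 14.1%. The 23 members from 45% GC upwards had medians of 44.8% and 46.3%, with minima of 8.52% and 11.5%. Across all genes, those under 45% GC had medians of 1.68% and 1.92%, and the others 40.8% and 42.9%. Coverage was lower in genes with more bases marked as repeats, with rho of -0.59 in females and -0.64 in males over the members and of -0.36 and -0.37 over all genes. It was also lower in longer genes, with rho of -0.53 and -0.54 over the members and of -0.11 and -0.12 over all genes. What part base composition has in the coverage was not tested.

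**Figure D3:**
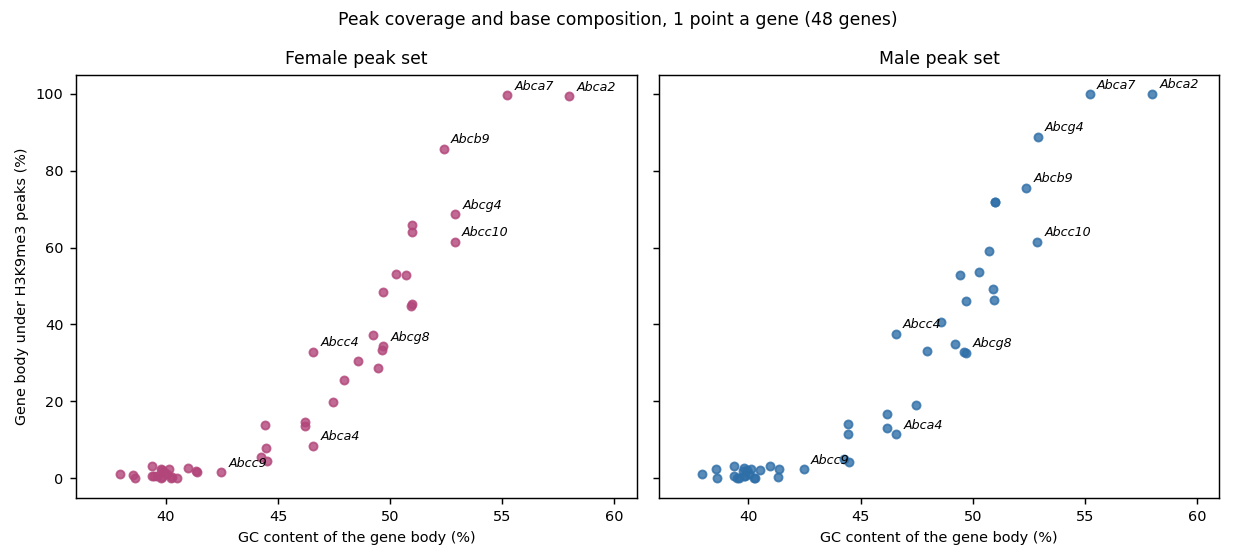
GC content of the gene body (horizontal axis, percent) against the share of the body under peaks (vertical axis, percent), 1 point a gene, females left and males right. The 25 genes under 45% GC lie at or under 14.1% in both panels, and all genes at higher GC lie at 8.52% or above.

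The start site itself, taken as the outermost annotated start of the gene, lay in a peak for 24 of 48 members in females and 28 in males, or 50% and 58.3%. Of all autosomal protein-coding genes 48.3% and 51.5% had a start in a peak. The start lay in a peak in both sexes for 20 members, in females only for 4, in males only for 8 and in neither sex for 16. These are 41.7%, 8.33%, 16.7% and 33.3% of the members, against 42.1%, 6.16%, 9.41% and 42.3% of all genes. Sequence for the promoter was matched in RefSeq (GRCm38.p6) for 36 members. Among these, the median number of CG dinucleotides in the 250 bases before the start was 17 with the start in a peak and 9.5 without in females, and 17 and 4.5 in males. Of the members with at least 10 CG, 13 of 22 had the start in a female peak and 17 of 22 in a male peak. Of those with fewer, 5 of 14 did in each sex. Among all matched genes the shares were 66.9% and 33.0% in females and 71.7% and 35.0% in males. Of the members with at least 10 CG, Abce1 (20 CG), Abcc10 and Abcf2 (13 CG each) had no peak over the outermost annotated start in either sex. Peaks of Abcc10 overlapped another of its annotated starts in both sexes, and those of Abce1 lay 56 bases from one in females and 32 in males. Of those with fewer, Abca13 (3 CG), Abcb1b, Abcb6 and Abcg3 (9 CG each) had one in both sexes.

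By the authors' annotation, a smaller share of member bins than of all autosomal bins lay in distal intergenic sequence. The intergenic share was 19.4%, 22.9%, 22.4% and 22.4% for member bins in females at 3 and 8 weeks and males at 3 and 8 weeks. For all bins it was 38.1%, 38.8%, 38.1% and 38.2%. Exons and UTRs held 22.2%, 21.0%, 20.5% and 19.9% of member bins, against 12.1%, 12.9%, 11.7% and 13.0% of all bins. The promoter share (within 3 kb of a start site) was 24.1%, 24.4%, 23.8% and 27.2%, against 20.4%, 21.5%, 19.7% and 22.9%. No test was made of these shares, and long genes with many exons hold more gene-body sequence by their structure. Between 68.6% and 73.3% of member bins overlapped the body of the gene they were assigned to.

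Member bins had a median GC content of 54.1% in females at 3 weeks, 54.7% in females at 8 weeks, 53.7% in males at 3 weeks and 55.1% in males at 8 weeks. All autosomal bins had medians of 53.7%, 54.7%, 53.5% and 55.3%, while the autosomes as a whole have 41.9% GC. The median share of bases marked as repeats was between 8.78% and 9.75% in member bins, between 12.0% and 12.4% in all bins and 33.5% over the autosomes. Intergenic member bins held more of them, with medians between 27.2% and 31.5%, than exonic ones, with medians between 4.19% and 4.79%. The peak around a member bin had a median length of between 891 and 1076.5 bp, against between 782 and 875 bp for all bins.

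The level of member bins was close to that of all bins. The authors' average CPM per kb of bin had a median over member bins of 12.1 in females at 3 weeks, 14.0 in females at 8 weeks, 9.68 in males at 3 weeks and 15.6 in males at 8 weeks. For all autosomal bins the medians were 11.8, 14.0, 9.54 and 15.3. Each table was normalized on its own, so the difference between these 4 values is not a change of the mark. Of the member bins of full width, between 6.22% and 8.39% exceeded the 90th percentile of all full-width bins in the 6 tables. The highest member bin of any table reached 3.91 log2 CPM, where the highest autosomal bin of the same table reached 9.65.

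The 10 members with the strongest bin, averaged over the 4 tables of 1 age, were Abca13, Abcc12, Abcb5, Abcc4, Abca1, Abca17, Abca16, Abca4, Abcg1 and Abcc3, with 35.3 CPM per kb for Abca13 and 22.3 for Abcc3. Nearly all of these bins were narrower than full width, most of them whole short peaks, where the per-kb scale is raised, such as an 80-bp bin of Abcc12 at 59.3 CPM per kb in females at 8 weeks. Over full-width bins, which 34 members had in all 4 tables, the order was led by Abca13, Abcb1a, Abcc4, Abcb5 and Abcd2. Many of these bins lay outside the gene they were assigned to. Those of Abcb1a were distal intergenic in all 4 tables, and those of Abcd2 lay outside its body, which held no peak. A gene with more bins has more chances of a high one.

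For Abca13, a lipid transporter of little known function in liver, the strongest full-width bin had 19.3 CPM per kb in females at 3 weeks, 27.0 in females at 8 weeks, 10.5 in males at 3 weeks and 21.1 in males at 8 weeks. For Abcb1a these levels were 13.7, 16.5, 13.3 and 30.0, with the male bin at 8 weeks the one printed above. For Abcc4 they were 16.2, 16.1, 12.7 and 27.8, and for Abcb5, a transporter of skin and eye stem cells, 13.3, 19.5, 11.5 and 24.3. The medians of all full-width bins were 10.4, 12.1, 8.15 and 13.3. These genes were chosen as the top of this order, so their place above the medians is no result. Abcc12, a transporter of unknown substrate, had 12.8, 15.1, 10.6 and 15.5 by the same measure. For none of these genes was the strongest bin the same in all 4 tables, so the values do not follow 1 place. The Abca13 bin was at -2022 bases from the start in females at 3 weeks. In the other tables it was distal intergenic, at 572373, 570855 and 556539 bases. The Abcc12 bin was a promoter bin in females at 3 weeks and distal intergenic in the other tables.

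**Figure D4:**
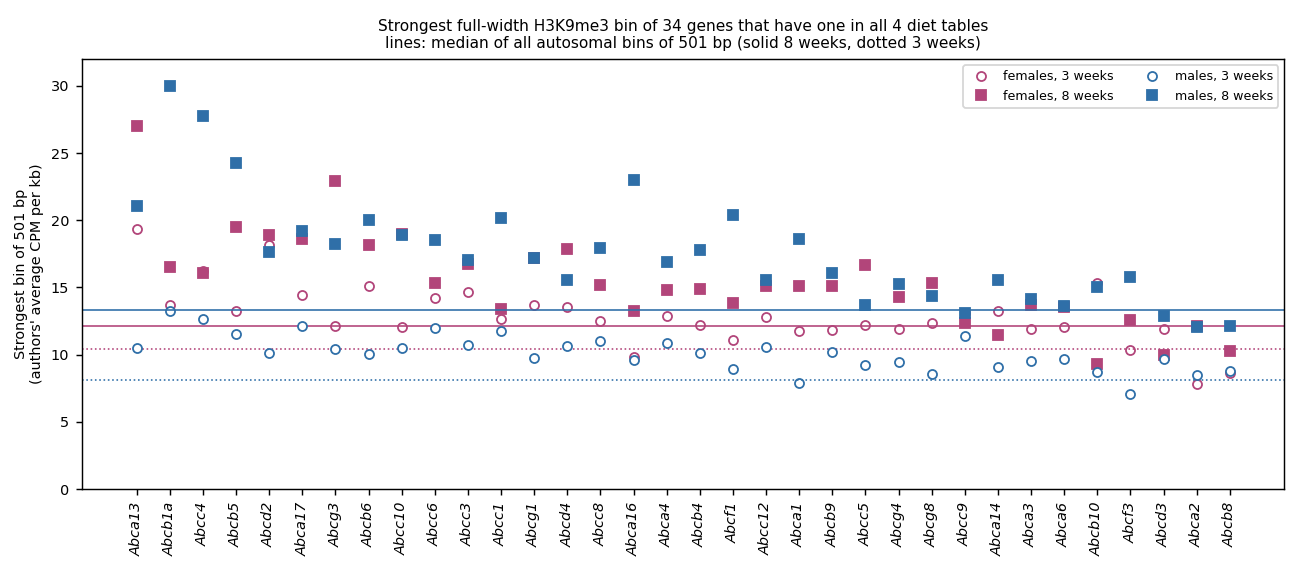
Level of the strongest full-width bin (vertical axis, the authors' average CPM per kb) of the 34 members that have one in all 4 tables of 1 age, with circles for 3 weeks and squares for 8 weeks. The strongest bin of a gene can be a different one in each table. Lines give the median of all autosomal full-width bins of each table, and the left end is held by Abca13 and by Abcb1a, at 30.0 in males at 8 weeks.

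The peaks listed at the 2 ages overlapped for members about as for the genome. Of 345 member peaks listed in a female table of 1 age, 68.4% were listed at both ages, 23.8% at 3 weeks only and 7.83% at 8 weeks only. For all autosomal peaks the shares were 65.8%, 25.3% and 8.87%. In males 382 member peaks gave 62.0%, 34.8% and 3.14%, against 58.7%, 38.2% and 3.13%. The tables listed fewer bins at 8 weeks than at 3 weeks for the whole genome, so a member peak listed at 3 weeks only cannot be read as a loss of the mark.

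A bin with the same coordinates at both ages was found in females for 170 member bins (40 genes) and in males for 157 (40 genes). The level at 8 weeks minus that at 3 weeks is given relative to the median over all such autosomal bins, which was 0.22 log2 CPM in females and 0.63 in males. On this scale the member bins had a median of 0.020 in females and -0.0087 in males. The 10th and 90th percentiles were -0.37 and 0.35 in females and -0.31 and 0.39 in males. All autosomal bins had -0.34 and 0.35, and -0.35 and 0.39. The difference lay above the median of all bins for 89 of the 170 female and 77 of the 157 male member bins.

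**Figure D5:**
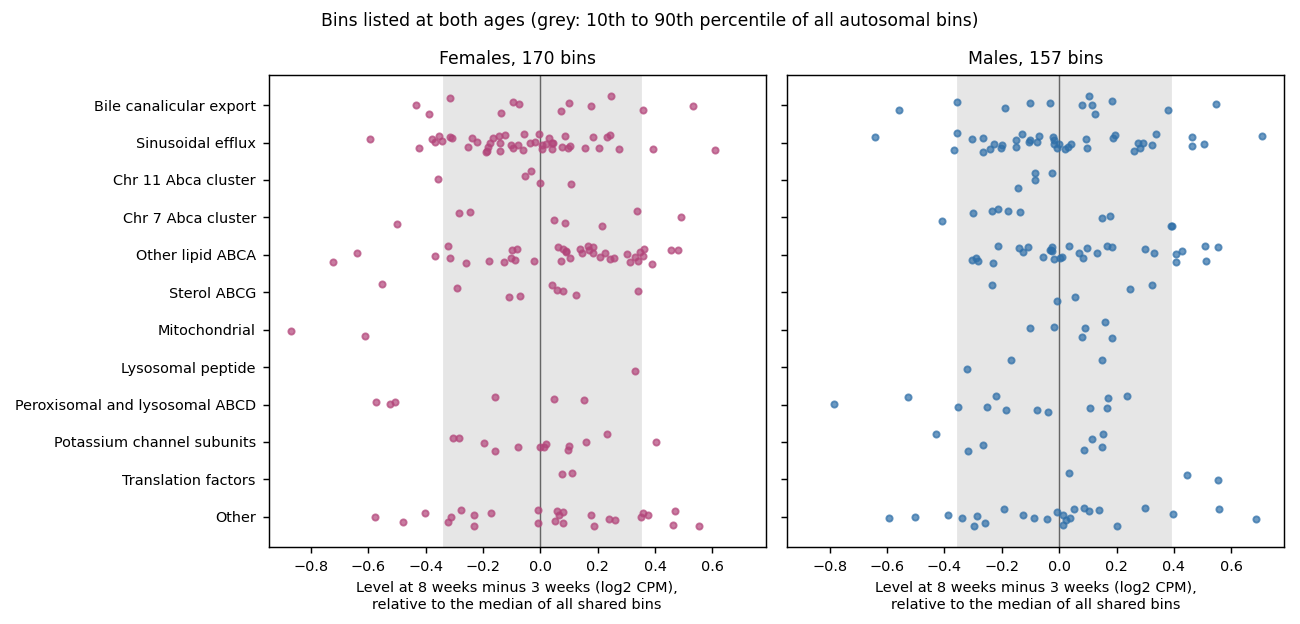
Level at 8 weeks minus 3 weeks (horizontal axis, log2 CPM relative to the median of all shared bins) of each member bin with the same coordinates at both ages, by role, females left and males right. The points spread over the grey band, the 10th to 90th percentile of all autosomal bins, with 39 of 170 female and 30 of 157 male points outside it.

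By the strongest shared bin of each gene, the ends of the range were held by different genes in the 2 sexes. In females the lowest were Abcb6 with -0.87, Abcb10 with -0.61 and Abcd3 with -0.52. The Abcb6 bin, chr1:75177232-75177732, had 7.59 CPM at 3 weeks and 4.83 CPM at 8 weeks. The highest in females were Abcg2 with 0.53, Abca15 with 0.49 and Abcc10, a drug exporter, with 0.47. The Abcg2 bin lay 34996 bases beyond the start it was assigned to, in distal intergenic sequence. The Abcd3 and Abcc10 bins were also distal intergenic, upstream of the assigned start at -29544 and -17168 bases. Those of Abcb10 and Abca15 lay upstream as well, at -5856 and -16694 bases, the latter inside the body of Abca14. These differences thus describe sequence outside the named genes.

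In males the lowest were Abcg5 with -0.56, Abcd4 with -0.53 and Abcc9 with -0.43, and the highest were Abcb5 with 0.69, Abcf1 with 0.55 and Abcc4 with 0.50. The Abcb5 bin printed above, chr12:118954692-118955192, had 4.89 CPM at 3 weeks and 12.2 CPM at 8 weeks. The same bin was shared by the female tables, with 6.09 and 9.75 CPM and a relative difference of 0.46. The Abcf1 bin covers the start site of this translation factor and had 4.49 and 10.2 CPM. The Abcc9 bin was distal intergenic, upstream of its assigned start at -20549 bases. These are the ends of a range and were chosen as such.

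By role, the canalicular exporters had a median of -0.0017 over 12 bins in females, with 6 above the median of all bins, and of 0.093 over 12 bins in males, with 7 above. The sinusoidal list had -0.060 in females, with 19 of 47 bins above, and -0.017 in males, with 17 of 39. The other lipid ABCA genes had 0.14 in females, with 26 of 39 bins above, of which Abca13 gave 17. In males they had 0.0089, with 17 of 31. The ABCD genes had -0.33 over 6 female bins and -0.13 over 12 male bins, with 2 and 4 above. Of the smallest lists, the translation factors had 2 of 2 female and 3 of 3 male bins above, the mitochondrial genes 0 of 2 and 4 of 6, and the chromosome 11 cluster 1 of 5 and 0 of 4. Several of these lists rest on fewer than 10 bins.

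For 16 genes with at least 3 shared bins in each sex, the median difference of the gene had the same sign in both sexes for 9, with 5 above and 4 below the median of all bins. Abcc1 lay below in both, with a median of -0.18 over 8 bins in females and -0.24 over 4 bins in males, and Abcd4 did so with -0.23 and -0.19. Abcb5 lay above in both, with 0.37 over 6 bins and 0.10 over 7 bins. Abca13 was at 0.23 over 23 bins and 0.097 over 17 bins. Abcc4 was near the median in both sexes, with -0.0056 over 21 bins and 0.021 over 19 bins. The bins of 1 gene are pieces of the same libraries and do not stand for separate mice.

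The difference with age was highest in the most GC-rich bins, in members as in all bins, with no steady trend below. In the part of the shared bins with the highest GC, above 56.3% in females and 56.7% in males, member bins had medians of 0.11 and 0.097, and all bins 0.097 and 0.11. In the part with the lowest GC, up to 53.1% and 53.5%, member bins had -0.0081 and -0.043, and all bins -0.056 and -0.052. In the middle part member bins had -0.095 and -0.076, and all bins -0.044 and -0.060. The part of base composition in the age differences was not tested.

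Bins of females and males that overlapped over at least 0.5 of each were compared within an age, as female minus male relative to the median of all such pairs. Over 123 member pairs in 37 genes at 3 weeks the median was -0.019, and over 120 pairs in 38 genes at 8 weeks it was -0.0040. The 10th and 90th percentiles were -0.30 and 0.36 at both ages, and those of all pairs were -0.31 and 0.32 at 3 weeks and -0.33 and 0.32 at 8 weeks. Females were above the median of all pairs in 57 of 123 pairs at 3 weeks and in 60 of 120 at 8 weeks. The lowest pair was the Abcc4 intronic bin at 8 weeks, with -0.97, and Abcc4 also had the next lowest, with -0.59, and the one after it, with -0.52. The median over its 15 pairs at 8 weeks was -0.14, and its highest pair was at 0.38. The highest at 8 weeks were Abcd4, with 0.62, and Abcg4, with 0.57. The same Abcg4 pair was the highest at 3 weeks, with 0.55.

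Genes that regulate or partner the transporters, taken from a list, had a median coverage of 11.9% in females and 15.9% in males. All 13 autosomal regulators and partners of ABC transporters, such as the bile acid receptor Nr1h4 and the sterol sensors Nr1h2 and Nr1h3, had a bin in at least 1 of the tables of 1 age. The share of all genes by this rule was not computed. In a single table it was between 75.1% and 77.9%, so the count is not read as a trait of the list. The start lay in a peak for 7 of the 13 in each sex, or 53.8%, against 48.3% of all genes in females and 51.5% in males. Rxra, the shared partner of these receptors, was covered over 79.2% of its body in females and 83.6% in males, and Nr1h4 over 0% and 0.321%. Of the ABC proteins outside the symbol rule, Tap1 and Tap2, the peptide transporter of antigen presentation, were covered over 52.1% and 83.6% in females and 57.7% and 92.7% in males, and Cftr over 0.274% and 0.344%. Among 7 genes of hepatocyte function, Alb, Fgb, Ttr and Cps1 had no peak in their bodies in either sex. Apoa1 was covered over 58.3% in females and 92.7% in males, Pck1 over 74.7% and 36.2%, and Tat over 2.35% and 0%.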

How the data were processed

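Livers gave 32 H3K9me3 ChIP-seq libraries. As the methods of the study describe, reads were aligned by the authors to mm10 (GRCm38) with BWA. Broad peaks were identified with MACS2, merged per sex and cut into 500-bp bins, reads were counted with featureCounts, and bins were annotated with ChIPseeker. Builds and MACS2 are also named in the submitters' processing notes. The deposited unit used here is log2: the authors' average log2 CPM of each bin over the 8 libraries of a table. The tables also hold the authors' own fold changes, p-values and FDRs between their groups; these comparison columns were not used. File names alone tie tables to groups. Depth per library was not analysed here, and 1 bin per peak is listed, chosen in a way that is not given in the sources used here.

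CPM per kb is 2 to the power of the deposited log2 CPM over bin width. The lowest CPM of listed bins hardly falls in narrower bins, so short bins read high per kb. Coverage used GENCODE vM21 gene bodies, and sequence the GRCm38.p6 genome. Steps were tested on simulated data (Python 3.11.15, pandas 2.3.3, numpy 2.4.6, scipy 1.17.1). Named genes are the 10 with the strongest bin, all bile and sinusoidal members, the 5 with most bins, members without a bin, and the 3 highest and 3 lowest age differences per sex. Gene lists and members were chosen with earlier results of these data known.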

Additional observations from a re-analysis of the deposited data

How the results depend on the processing

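Over 34 results, 68 of 74 alternatives (62 planned and 12 chosen after seeing the data) stayed within the spread of the members or, for counts and coverage, within 1.5 times. The value was identical under 4 of them, among them the wider overlap between ages, which added no bin. Of the other 6, 4 concern the promoter share, which fell when a promoter was set within 1 kb of a start site, to 15.9% and 16.0% in females at 3 and 8 weeks and to 15.6% and 19.1% in males. By construction this leaves out bins from 1 to 3 kb away. The median difference between ages in males was -0.0087 and became 0.038 with full-width bins only, and that between the sexes at 3 weeks was -0.019 and became 0.024 among bins above the median level. At 8 weeks it was -0.0040 and became 0.0090 with overlaps of any length, so no direction is read from these medians. The alternatives chosen after seeing the data took the peaks of 1 table only. Median coverage of the members then lay between 5.22% and 6.70% in females and between 4.81% and 11.0% in males, with the lowest value of each sex, at 8 weeks, more than 1.5 times under the main one. In males it lay under the median of all genes at 8 weeks and above it in the other tables. The starts in a peak numbered between 22 and 24 in females and between 25 and 27 in males. No paired analysis was possible because the deposited tables hold no value per library. For the same reason no library could be left out and no spread between mice was computed.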
